A study of Mus musculus with 139 samples.

Results

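Mir216a, Mir216b and Mir217 are 3 microRNA (miRNA) genes that lie close together on mouse chromosome 11. They were taken by gene name and make up 3 of the 6114 small RNA genes counted, of which 2207 are classed as miRNA. Libraries of small RNA came from 11 tissues of 14 mice of the inbred strain C57BL/6J, all labelled WT, adult and 3 months old, and no treatment is named in the labels. There were 12 pancreas, 12 intestine and 14 brain libraries, 14 of spleen, muscle and kidney, 13 of lung, heart and liver, 12 of bone marrow and 3 of testis. Animals 1 to 10 were female and animals 11 to 14 male. For animals 1 to 10, pool N467 took pancreas, lung, liver, kidney and spleen, and pool N469 took intestine, brain, muscle, heart and bone marrow. The libraries of animals 11 to 14 were in pool N541, which for the 3 testis libraries is an assumption, since each could be either of 2 listed samples. Within a tissue, pool, sex and animal set are therefore 1 split and cannot be told apart.

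A miRNA gene is transcribed as a long primary RNA, from which a hairpin is released and then trimmed to a mature strand of either arm. The mature strand guides Argonaute proteins to messenger RNAs that pair with its seed, the bases next to its 5′ end, and lowers their output. The miR-216 and miR-217 cluster is known as a product of the exocrine pancreas, above all of the acinar cells that make digestive enzymes. Sirt1 has been described as a target of miR-217. The libraries were made from whole tissue, so the cells that carried the counts were not resolved, and fewer cells of a type and less RNA per cell cannot be told apart.

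The mature sequences are shown because they set which messages each member can pair with and how well reads of Mir216a and Mir216b can be separated. They are RefSeq's for GRCm38.p6, written 5′ to 3′ with the seed (bases 2 to 8) in capitals.
miR-216a-5p: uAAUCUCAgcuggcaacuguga
miR-216b-5p: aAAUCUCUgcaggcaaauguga
miR-217-5p: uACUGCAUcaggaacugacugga
miR-216a-3p: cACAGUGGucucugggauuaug
miR-216b-3p: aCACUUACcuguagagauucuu
miR-217-3p: cAUCAGUUccuaaugcauugccu
The 5p strands of miR-216a and miR-216b had 18 of 22 bases in common. Counted from 1 at the 5′ end, with the base of miR-216a-5p first, they differed by U1A, A8U, U11A and C17A. Bases 2 to 7 were the same and base 8, the last of the seed, was not. None of the 6 seeds was found in any other of the 1738 mature miRNAs of that reference, and miR-217-5p had a seed unlike both miR-216 strands.

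The hairpins, with the mature arms in capitals, show where both arms lie in each gene; counts are per gene, so the arms were not separated.
Mir216b hairpin: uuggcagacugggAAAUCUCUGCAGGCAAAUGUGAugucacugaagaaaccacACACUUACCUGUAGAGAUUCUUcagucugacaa
Mir216a hairpin: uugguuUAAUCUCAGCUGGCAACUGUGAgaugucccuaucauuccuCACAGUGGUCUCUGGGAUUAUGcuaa
Mir217 hairpin: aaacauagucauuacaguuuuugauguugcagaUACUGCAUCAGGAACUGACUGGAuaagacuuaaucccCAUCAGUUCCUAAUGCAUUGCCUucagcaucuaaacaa
All 3 lie on the plus strand of GRCm38, Mir216b at chr11:28746191-28746276, Mir216a at chr11:28757012-28757083 and Mir217 at chr11:28763728-28763835. They span 17645 bases, with 10735 bases between Mir216b and Mir216a and 6644 between Mir216a and Mir217. In the GENCODE M21 annotation Mir216a and Mir217 lie in intron 2 of Gm12082, a long non-coding RNA gene of 4 exons. Gm12082 starts 5442 bases after the start of Mir216b, which is thus outside it. RefSeq places Mir216b within Mir217hg, and Mir216a and Mir217 within a second long RNA gene, Gm40818. Mir216c is annotated opposite Mir216b, at chr11:28746198-28746266 on the minus strand, and its hairpin is the reverse complement of part of the Mir216b hairpin. Whether the counting used strand is not given in the sources used here. Mir216c held 0 counts in every pancreas and intestine library, and 1 count in each of Brain 4, Lung 11 and Testis 11. Both mature arms of Mir216b lie within the Mir216c interval. Mir216b held 3166 counts in pancreas and 886 in intestine, so its reads were kept apart from Mir216c there.

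**Figure D1:**
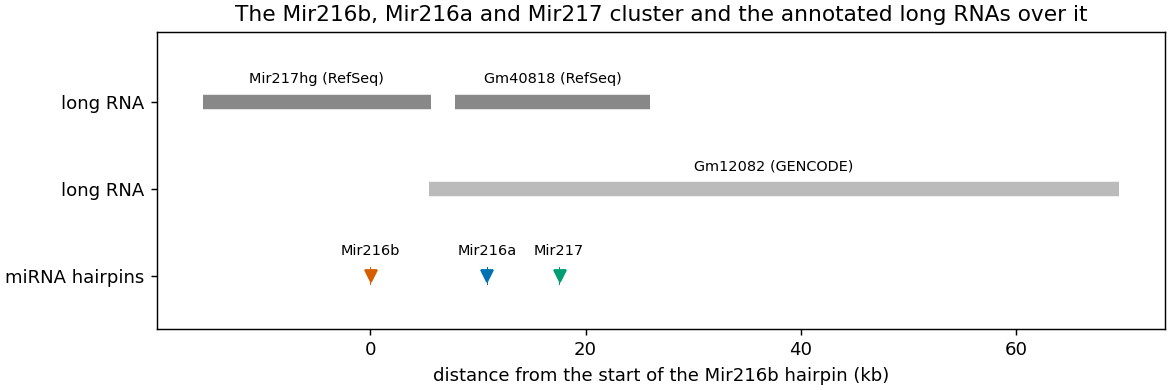
Position of the 3 hairpins (triangles) and of the annotated long RNA genes that cover them (bars), as distance in kb from the start of the Mir216b hairpin. Gm12082 starts 5442 bases from the start of Mir216b and covers Mir216a and Mir217, while Mir217hg covers Mir216b.

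Levels are given in counts-per-million units (CPM) of all counts in a library. Library totals ran from 10255 to 34095704 counts, and pancreas was shallow, at 10255 to 964665. The library labelled Pancreas 11 was the shallowest and stood apart. It carried 150756 CPM of the 5 intestinal epithelium miRNAs Mir215, Mir192, Mir194-1, Mir194-2 and Mir31, against 434.9 to 2123 in the other 11 pancreas libraries, in 10 of which at least 1 of the 5 was at 0. Mir215 alone reached 81716 CPM there and at most 1.602 in the others. In the table its column stands among the intestine columns. Its index number in pool N541 was 33, beside 35 and 36 of Intestine 13 and Intestine 14, where Pancreas 12 and Pancreas 13 had 14 and 15. Whether it is a pancreas library, an intestine one or a mixture could not be settled, and every pancreas value with n = 12 includes it. The 9 other miRNAs of the pancreas list (Mir148a, Mir375, Mir7-1, Mir7-2, Mir7b, Mir184, Mir802, Mir34a and Mir219a-1) summed to 20965 CPM in it, 2 of them at 0, against 259804 to 538835 in the other 11, where none was at 0. Results that rest on pancreas are given with it and, where it bears on them, without it.

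In pancreas all 3 members were high in nearly every library. Mir216a ran from 292.5 CPM to 10635, with a median of 4415 and a mean of 4792 ± 3050 (SD, n = 12), and Mir217 from 292.5 to 8967, with a median of 2767 and a mean of 3772 ± 2713. Mir216b ran from 0 to 2188, with a median of 1118 and a mean of 1050 ± 698.9. Without Pancreas 11 the means were 5201 ± 2833 for Mir216a, 4088 ± 2603 for Mir217 and 1146 ± 645.7 for Mir216b (n = 11). Pancreas 11 held 3 counts of Mir216a, 3 of Mir217 and 0 of Mir216b, so its place among the pancreas libraries rests on very few reads.

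The sum of the 3 members was highest in Pancreas 9, at 21790 CPM or 2.179% of all its counts. Pancreas 6 followed at 18871 CPM. Pancreas 8 stood at 13378, Pancreas 7 at 11309, Pancreas 13 at 9931, Pancreas 1 at 9484 and Pancreas 4 at 8540. These 7 libraries came from both animal sets. Pancreas 3 stood at 7082 CPM, Pancreas 2 at 6584, Pancreas 12 at 4272 and Pancreas 5 at 3549, and Pancreas 11 lay below them all at 585.1. The deepest library, Pancreas 5, had the second lowest sum. Of its 3424 cluster counts 727 were from Mir216b.

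**Figure D2:**
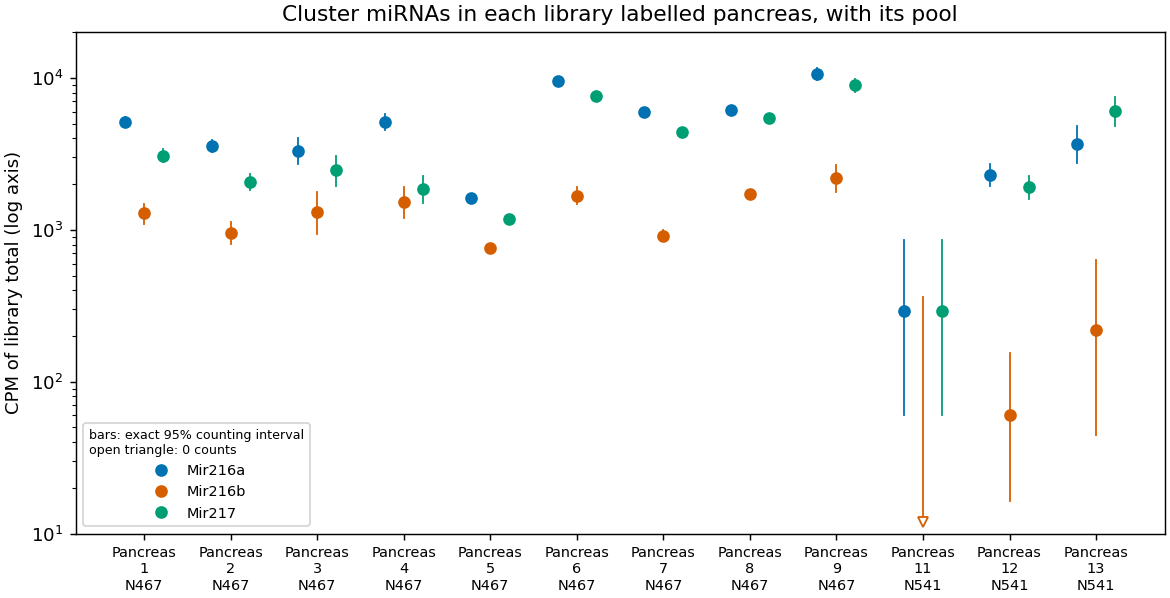
CPM of Mir216a, Mir216b and Mir217 (log axis) in each library labelled pancreas, with its pool; bars are exact 95% counting intervals and the open triangle stands for 0 counts. Mir216b lay at 754 CPM or above in the 9 libraries of pool N467 and at 217.5 or below in the 3 of pool N541.

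Outside pancreas the members were far lower. Of 34360 cluster counts in the whole table, 75.8% were in pancreas, 21.9% in intestine and 1.98% in brain, although pancreas held 2872917 counts of all genes, intestine 99849873 and brain 56821524. Mean CPM of Mir216a was 174-fold higher in pancreas than in intestine and 2509-fold higher than in brain. For Mir217 these ratios were 126-fold and 564-fold, and for Mir216b 133-fold and 2846-fold. The intestine means leaned on Intestine 1, without which they gave 290-fold for Mir216a, 248-fold for Mir217 and 254-fold for Mir216b. Against liver, where both were at 0 in all 13 libraries, Mir217 was at least 43542-fold higher in pancreas and Mir216b at least 12123-fold, taking 3 counts over all liver libraries as the limit that 0 counts allow. Mir216b was likewise at 0 in the 3 testis libraries, which puts pancreas at least 31149-fold higher.

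**Figure D3:**
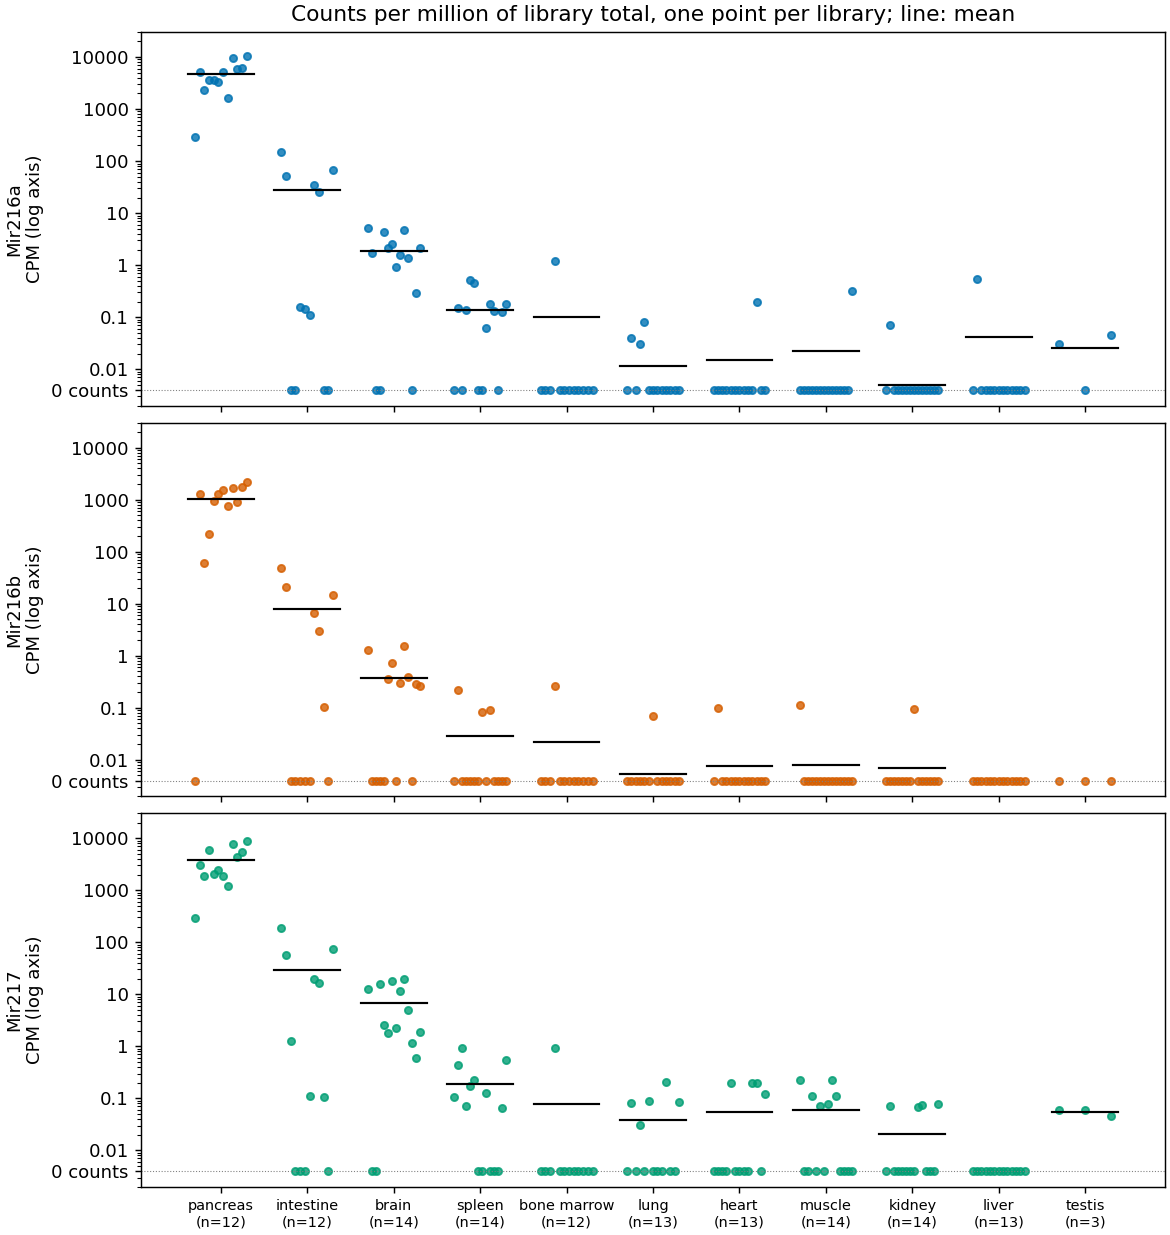
CPM (log axis) of each member in every library, by tissue; each point is 1 library, lines are means, and libraries with 0 counts are drawn on the dotted line. Pancreas stands highest for all 3 members, intestine is split between 5 libraries with the members and 7 at or near 0, and brain lies above spleen.

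All 3 members were higher in pancreas than in the mean of the other 10 tissues by edgeR's quasi-likelihood test. The log2 difference was 14.67 ± 0.63 (SE) for Mir216a, 12.22 ± 1.14 for Mir216b and 13.85 ± 0.68 for Mir217, with Benjamini-Hochberg adjusted p of 4.09e-46, 1.75e-17 and 7.37e-39. Of the 1268 genes tested, 11.3% were called higher in this comparison, at adjusted p below 0.05 and a log2 difference of at least 1. The median difference over all tested genes was -0.95, or -0.43 when library totals replaced the TMM scaling.

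Against intestine alone, the next tissue by mean CPM, all 3 members were also called higher in pancreas, as were 8.75% of the tested genes. The log2 difference was 6.33 ± 1.28 for Mir216a, 4.24 ± 1.63 for Mir216b and 6.37 ± 1.22 for Mir217 (edgeR adjusted p = 1.41e-05, 0.0294 and 5.24e-06). The median over all genes was -1.23, or -0.28 with library totals. Without Pancreas 11 the 3 differences were 6.90, 4.57 and 6.74. The Mir216b call was lost without any 1 of Pancreas 12, Pancreas 13, Intestine 13 or Intestine 14, where its log2 difference was 4.37, 3.68, 3.27 and 3.10. Those are libraries of pool N541, the 1 pool that holds both tissues. Within that pool alone Mir216a and Mir217 were called, at 16.62 and 11.79 (edgeR adjusted p = 9.42e-06 and 6.36e-06), sizes that depend on the fit since intestine held 0 and 1 counts of them there.

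A stricter comparison asked whether pancreas exceeded each of the 10 other tissues singly, by the least favourable one-sided p-value of the 10. It called 1.34% of the tested genes. Mir216a and Mir217 were among them (edgeR adjusted p = 1.63e-04 and 6.03e-05), with intestine as the nearest tissue. Mir216b, at a smallest log2 difference of 4.24, was not (adjusted p = 0.304). With the animal as a block in place of the pool term the Mir216b difference was 7.45 and it was called (edgeR adjusted p = 2.24e-08).

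Below pancreas the order of tissues was only partly resolved. By mean CPM the same 4 tissues led for each member, in the order pancreas, intestine, brain and spleen. By median CPM brain stood above intestine, at 1.635 against 0.1505 for Mir216a, 0.2805 against 0.05265 for Mir216b and 2.426 against 0.6979 for Mir217. Between neighbours, log2(CPM + 1) was compared by permutation, with p adjusted over 40 pairs of neighbours. Pancreas was above intestine (adjusted p = 1.60e-04 for Mir216a and Mir217, 2.67e-04 for Mir216b). Brain was above spleen (permutation adjusted p = 0.00126 for Mir216a, 0.0259 for Mir216b and 1.60e-04 for Mir217). Intestine and brain did not differ beyond their spread (permutation adjusted p = 0.593, 0.217 and 1 for Mir216a, Mir216b and Mir217), and neither did any neighbours from spleen downward. The smallest of these raw p-values, 2e-05, is the smallest that the 100000 resamples can give.

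In intestine the members were present in some libraries and nearly absent from others. Mir216a reached 148.4 CPM in Intestine 1, 68.99 in Intestine 9, 50.88 in Intestine 10, 35.55 in Intestine 5 and 25.75 in Intestine 6. Mir217 reached 190.3, 72.54, 57.51, 19.56 and 16.45 in the same libraries, and Mir216b 49.43, 15.0, 20.74, 6.634 and 3.033. In the other 7 libraries, of 777968 to 12851764 counts, the cluster held 0 to 2 counts each, and Intestine 8 and Intestine 14 had none. Means over the 12 libraries were 27.5 ± 45.0 CPM for Mir216a, 7.91 ± 14.8 for Mir216b and 29.8 ± 56.2 for Mir217, with SDs above the means.

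Other quantities were set beside the cluster in intestine, and their part in it was not tested. Transfer RNA took 92.7% of counts in Intestine 6, 88.7% in Intestine 5, 77.2% in Intestine 9, 63.8% in Intestine 10 and 8.73% in Intestine 1. In the other 7 libraries it took 5.46% to 52.2%, so that 4 of the 5 stood above all of these and Intestine 1 did not. As CPM of the miRNA counts alone (miRNA CPM), which leaves transfer RNA out of the total, the cluster stood at 831 in Intestine 9, 672.7 in Intestine 6, 579.6 in Intestine 5, 447 in Intestine 1 and 382.2 in Intestine 10, and at most at 1.759 in the other 7. On that scale these 5 libraries lay closer together than in CPM. Mir148a, a miRNA abundant in pancreas, stood at 32768 to 46794 miRNA CPM in the 5 and at 8344 to 19035 in the other 7. Mir375, a miRNA of islet and other endocrine cells, stood at 4696 to 6496 in the 5 and at 1057 to 3960 in the other 7. The values of neither gene overlapped between the 5 and the 7, and 3.83% of the 575 tested miRNA genes other than the members were likewise higher in the 5 with no overlap. The other 7 of the 9 miRNAs of the pancreas list did overlap, among them Mir7-1 at 66.85 to 1027 against 85.5 to 501.1 and Mir802 at 657.1 to 1193 against 179.4 to 754.1. With Mir148a and Mir375 as the bulk of it, the sum of the 9 came to 38899 to 54849 miRNA CPM in the 5 and 10750 to 23174 in the other 7, none at 0 in any intestine library. The 5 intestinal epithelium miRNAs summed to 204855 to 358753 in the 5 and 318094 to 456641 in the other 7, and the pan-epithelial ones to 11015 to 17971 and 14226 to 53733. Of the first list Mir192 was lower in the 5 with no overlap, at 58207 to 100941 against 104335 to 184069. It was the only 1 of the 575 tested miRNA genes other than the members (0.174%) to be so. The smooth muscle miRNAs Mir143 and Mir145a stood at 133267 to 343368 and 78182 to 193670, the erythroid Mir451a and Mir144 at 686.3 to 3384 and 114.3 to 1331, and the lymphoid Mir150 and Mir142 at 2162 to 5970 and 627.8 to 4571. These 3 lists reached higher in the 5 but overlapped. These 5 libraries were picked out by the cluster itself, so the values are descriptions with no test.

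**Figure D4:**
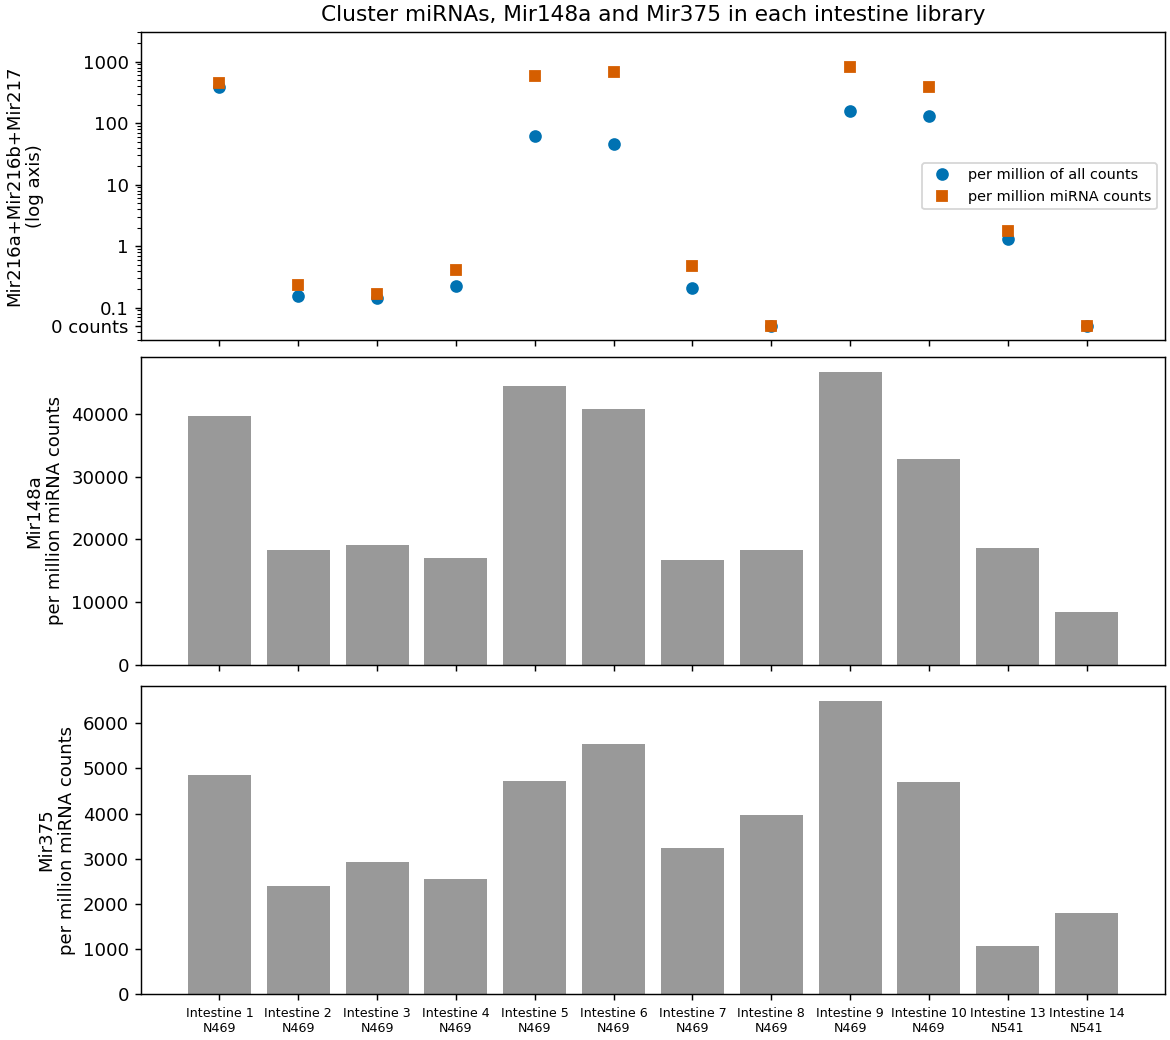
Top, the sum of the 3 members in each intestine library as CPM of all counts (circles) and of the miRNA counts (squares), on a log axis; middle and bottom, Mir148a and Mir375 as CPM of the miRNA counts, in bars from 0. Intestine 1, 5, 6, 9 and 10 stand high in all panels on the miRNA scale, with the cluster at 382.2 to 831. Of the 9 miRNAs of the pancreas list, Mir148a and Mir375 are the only 2 that were higher there with no overlap.

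Pool N469, which held the intestine libraries of animals 1 to 10, contained no pancreas library. Its 10 intestine libraries had 7522 cluster counts, a pooled 77.5 CPM (exact 95% counting interval 75.8 to 79.3). The 28 libraries of that pool from bone marrow, heart and muscle had 12 cluster counts, a pooled 0.0717 CPM (0.0370 to 0.125). In pool N467, with 9 pancreas libraries, the 38 libraries of other tissues had 0.108 CPM (0.0767 to 0.147). The 10 brain libraries of pool N469 lay between, at 656 cluster counts and a pooled 12.5 CPM (11.5 to 13.5). Intestine 1, 5, 6, 9 and 10 lay above every brain library, the highest of which was Brain 5 at 25.9 CPM, while the other 5 intestine libraries of the pool, at 0.221 CPM or less, lay below all of the brain ones there. In pool N541, the 2 intestine libraries had 1 cluster count of 2850401, a pooled 0.351 CPM (0.00888 to 1.96), against 5.69 (3.64 to 8.46) in brain, 0.509 (0.302 to 0.804) in spleen and 0.466 (0.276 to 0.737) in bone marrow.

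Compared with the mean of the 9 tissues other than pancreas, intestine was higher in all 3 members, as it was for 33.8% of the tested genes. The log2 difference was 9.26 ± 0.78 for Mir216a, 8.87 ± 1.21 for Mir216b and 8.30 ± 0.78 for Mir217 (edgeR adjusted p = 6.04e-21, 2.19e-10 and 7.07e-18). The intestine side of this rests mainly on Intestine 1, 5, 6, 9 and 10, since the members were at or near 0 in the others. The median of Mir216a was 0.1505 CPM in intestine, 1.635 in brain and 0.1299 in spleen. With pool N541 alone neither Mir216a nor Mir217 was called (log2 difference -2.05 and 2.48, edgeR adjusted p = 1 and 0.556). Mir216b did not pass the filter on low counts there.

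Brain held the members at low levels and unevenly. Mir217 ran from 0 to 19.7 CPM with a median of 2.43 (mean 6.69 ± 7.31, n = 14). It stood at 12.8 CPM in Brain 1, 18.2 in Brain 2, 11.8 in Brain 4 and 19.7 in Brain 5, from 91 to 139 counts each, and Brain 12 reached 15.9 from 4 counts. The other 9 lay at 4.99 or below, the 4.99 in Brain 6, and Brain 10 and Brain 11 were at 0. Mir216a ran from 0 to 5.08 CPM (mean 1.91 ± 1.73) and Mir216b from 0 to 1.56 (mean 0.369 ± 0.495).

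A p53-responsive miRNA, Mir34a, was at 562.5 to 1009 CPM in Brain 1, 2, 4, 5 and 6 and at most at 418.9 in the other 9. Mir182 stood at 407559 CPM in Brain 10, 111494 in Brain 7 and 75200 in Brain 8, libraries in which Mir217 was at 0, 1.15 and 0.586. Mir34a was 1 of the 2.06% of tested genes that stood higher in Brain 1, 2, 4, 5 and 6 than in the other 9 with no overlap, and 3.72% stood lower. The sums of 3 marker lists also did not overlap between the same 5 and 9. Intestinal epithelium miRNAs summed to 2065 to 2590 CPM in the 5 and 841.7 to 1432 in the other 9. Mir192 made up most of that sum, at 1751 to 2395 and 521.2 to 1007 CPM. It was the only 1 of the 5 genes of that list that was higher with no overlap, and Mir31 was lower. Mir215 was highest in Brain 10 of the 9, at 151.8 CPM, and at most at 2.40 in the 5. The pan-epithelial miRNAs summed to 6.38 to 48.2 and 427 to 22255, and 4 of the 5 (Mir200a, Mir200b, Mir141 and Mir429) were lower with no overlap. The 9 miRNAs of the pancreas list summed to 2225 to 3623 and 4297 to 10708, so that this sum was lower in the 5. Of the 9 genes only 1, Mir148a, was lower with no overlap, at 782 to 1968 and 2749 to 7255. Mir34a, also on that list, was the only 1 that was higher with no overlap, and the others overlapped. These 5 libraries were picked out after the values were seen, and the split does not follow Mir217 CPM alone. Brain 12, at 15.9 CPM of Mir217 from 4 counts, is among the 9, and Brain 6, at 4.99, among the 5. The ranges and the lack of overlap are therefore descriptions with no test, and the part of these differences in the Mir217 values was not tested.

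Brain was higher in all 3 members than the mean of the 8 tissues other than pancreas and intestine, as it was for 36.0% of the tested genes. The log2 difference was 4.85 ± 0.75 for Mir216a, 4.34 ± 0.998 for Mir216b and 5.90 ± 0.79 for Mir217 (edgeR adjusted p = 7.25e-09, 7.44e-05 and 5.00e-11). This comparison was chosen after the brain values were seen. With pool N541 alone it was 4.79 for Mir216a and 4.55 for Mir217, both called (edgeR adjusted p = 0.00106 and 8.61e-04).

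Among libraries with enough counts to measure it, the make-up of the cluster's counts differed between brain and both pancreas and intestine. In libraries with at least 20 counts of the pair, Mir216a gave 57.1 ± 8.56% of the counts of Mir216a plus Mir217 in pancreas (n = 11), 53.0 ± 9.16% in intestine (n = 5) and 20.3 ± 7.41% in brain (n = 6). Shares ran from 38.1% in Pancreas 13 to 73.5% in Pancreas 4, from 43.8% to 64.5% in intestine and from 11.9% to 28.6% in brain. Each of the 6, Brain 1 to Brain 6, thus lay below every pancreas and intestine library with enough counts. The difference from brain was 36.8 points for pancreas and 32.7 for intestine (exact permutation, two-sided, adjusted over 6 comparisons, p = 9.70e-04 and 0.00866). Pancreas and intestine differed by 4.12 points, within their spread (exact permutation adjusted p = 0.470). The low share was measured in these 6 libraries, and the other brain libraries had too few counts to place singly. The minimum is set on the pair's own counts, of which Mir216a gave 112 of 602 in these 6. The choice of brain libraries is thus not independent of Mir217, and the p-values hold for these libraries only. Below the minimum, Mir216a gave 8 of 15 counts in Brain 9 (53.3%, exact 95% binomial interval 26.6 to 78.7%), 6 of 11 in Brain 14 (54.5%, 23.4 to 83.3%) and 5 of 8 in Brain 13 (62.5%, 24.5 to 91.5%), and 11 of 23 in all brain libraries of pool N541 (47.8%, 26.8 to 69.4%). It gave 0 of 4 in each of Brain 7 and Brain 12, 1 of 3 in Brain 8 and 1 of 1 in Brain 10. All brain libraries below the minimum together gave 21 of 46 (45.7%, 30.9 to 61.0%). With a minimum of 5 counts, which takes in Brain 9, 13 and 14 and Pancreas 11, brain differed by 24.0 points from pancreas (exact permutation adjusted p = 0.00599), and the 20.5 points from intestine no longer passed (adjusted p = 0.0704).

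In libraries with at least 20 counts of the 3 members, Mir216b gave 11.7 ± 6.38% of them in pancreas, 11.2 ± 3.50% in intestine and 4.01 ± 2.61% in brain. The pancreas shares ran from 1.41% to 21.2%, on both sides of the intestine range of 6.71 to 16.1%, and the brain shares from 0 to 6.62%. The difference from brain was 7.73 points for pancreas and 7.16 for intestine (exact permutation adjusted p = 0.0179 and 0.00866), and pancreas and intestine differed by 0.567 points (adjusted p = 0.851). With a minimum of 50 counts the pancreas and brain difference of 7.19 points no longer passed (exact permutation adjusted p = 0.0615). The 6 brain libraries were all of pool N469, and the pancreas ones mostly of N467, so pool and tissue cannot be told apart here, whereas all 5 intestine libraries shared the pool of the brain ones. The comparisons with brain were added after the values were seen.

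**Figure D5:**
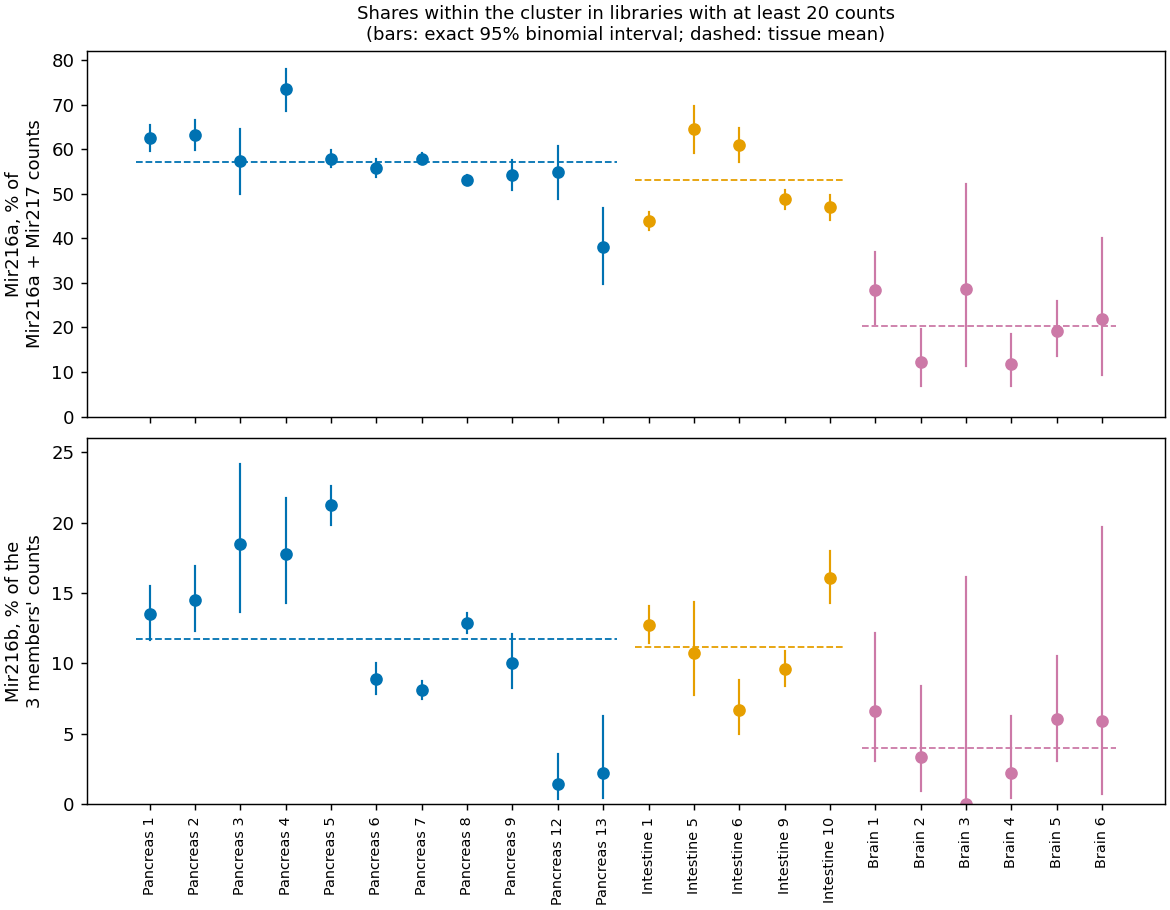
Share of Mir216a in the counts of Mir216a plus Mir217 (top) and of Mir216b in the counts of all 3 members (bottom), for each library with at least 20 counts; bars are exact 95% binomial intervals and dashed lines are tissue means. Brain 1 to 6 lie at 11.9 to 28.6% in the upper panel, below all pancreas and intestine libraries drawn, and Pancreas 12 and 13 lie at 1.41 and 2.19% in the lower. Brain 9, 13 and 14, with too few counts to be drawn, had 53.3 to 62.5% in the upper measure, and Brain 7, 8 and 12 had 0 to 33.3%. All brain libraries below the minimum together had 45.7%.

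Within pancreas, Mir216b was the member that separated the animal sets. It stood at 1369 ± 458 CPM in animals 1 to 10 (n = 9) and at 92.6 ± 112 in animals 11 to 14 (n = 3), and the sets did not overlap. Pancreas 12 had 4 counts and 60.4 CPM, Pancreas 13 had 3 counts and 217.5 CPM, and Pancreas 11 had none. The difference was 5.78 on the log2(CPM + 1) scale (exact permutation, two-sided, p = 0.00909, the smallest that 9 against 3 allow, adjusted over the 3 members 0.0273). As a background, 5.76% of the tested genes were higher in animals 1 to 10 with no overlap. Without Pancreas 11, 12 or 13 the log2 difference was 3.49, 6.46 or 7.38. The adjusted p was then 0.109, which is fixed by the design, since 9 against 2 allow no exact p below 0.0364. Mir216a was at 5690 ± 2905 and 2100 ± 1712 CPM and Mir217 at 4117 ± 2722 and 2737 ± 2952 in the 2 sets (exact permutation adjusted p = 0.123 and 0.264). Without Pancreas 11 the log2 difference was 0.77 for Mir216a and -0.0057 for Mir217.

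As a share of the cluster's counts, Mir216b made up 13.9 ± 4.54% in the 9 libraries of animals 1 to 10, from 8.11% to 21.2%. It made up 1.41% in Pancreas 12 (4 of 283 counts, exact 95% binomial interval 0.386 to 3.58%) and 2.19% in Pancreas 13 (3 of 137, 0.454 to 6.27%). Neither interval reached the lowest share of the 9. The difference of 12.1 points had an exact permutation p of 0.0364, the smallest that 9 against 2 allow, or 0.0727 adjusted over the 2 shares compared. This comparison was added after the values were seen. Other tissues of pool N541 held too few counts to compare: the brain libraries 1 of Mir216b beside 11 of Mir216a and 12 of Mir217, the spleen libraries 0 beside 11 and 7, and the bone marrow libraries 2 beside 9 and 7.

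From one pancreas library to the next the members varied together. On the log2(CPM + 1) scale Mir216a and Mir217 had Pearson's r of 0.93 and Spearman's rho of 0.83 over the 12 libraries (permutation adjusted p = 2.40e-04 and 0.00459 over 6 relations), and r was 0.77 without Pancreas 11 and Pancreas 5. Within pool N467 (n = 9) r was 0.92 and rho 0.88 (permutation adjusted p = 0.00150 and 0.0178). Pool N541 holds 3 libraries, too few for a value of its own. Mir216a and Mir216b had r of 0.89 and rho of 0.83 (permutation adjusted p = 0.00361 and 0.00459), and r of 0.74 without the same pair. Within pool N467 r was 0.80 and rho 0.77 (permutation adjusted p = 0.0154 and 0.0653). Without Pancreas 11 alone r was 0.61 and no longer passed, while rho was 0.77 and did (permutation adjusted p = 0.0689 and 0.0227).

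Mir216b and Mir217 had the weakest relation. Their r was 0.75 and rho 0.61 (permutation adjusted p = 0.0158 and 0.0401), and r fell to 0.12 without Pancreas 11 and Pancreas 12, where Pancreas 13, with 3 counts of Mir216b, stayed in. Within pool N467, which holds none of these 3 libraries, r was 0.74 and rho 0.70 (n = 9, permutation adjusted p = 0.0247 and 0.0856). Without Pancreas 11 alone r was 0.30 (permutation adjusted p = 0.390). The islet miRNA Mir375 moved with the cluster as well. Its r was 0.96 with Mir216a, 0.91 with Mir216b and 0.88 with Mir217 (permutation adjusted p = 1.20e-04, 0.00534 and 5.80e-04; rho 0.77, 0.73 and 0.64, adjusted p = 0.00906, 0.0141 and 0.0334). Without the 2 libraries farthest from the median these were 0.84, 0.46 and 0.68, the 0.46 again without Pancreas 11 and Pancreas 12 and with Pancreas 13. Within pool N467 they were 0.89, 0.74 and 0.78 (n = 9, permutation adjusted p = 0.00747, 0.0229 and 0.0154). By rank none passed there, with rho of 0.60, 0.58 and 0.52 (permutation adjusted p = 0.128, 0.128 and 0.1615). Without Pancreas 11 alone r was 0.90, 0.54 and 0.74 (permutation adjusted p = 0.00102, 0.1245 and 0.0126). All 4 genes are shares of 1 library total, and the most abundant other miRNA named here, Mir148a, was at 427114 CPM in Pancreas 5 and 157892 in Pancreas 6, where the cluster stood at 3549 and 18871. Pancreas 9 was like Pancreas 6, at 193099 and 21790. That order did not hold throughout, since Pancreas 8 had 490210 CPM of Mir148a and 13378 of the cluster, and Pancreas 12 had 263306 and 4272. The part of the shared total in these relations was not tested.

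In the 8 remaining tissues the members were at or near 0. Spleen had 45 cluster counts over 14 libraries, 20 of Mir216a, 5 of Mir216b and 20 of Mir217, spread over 12 libraries and at most 0.946 CPM. All 18 counts of bone marrow, 9 of Mir216a, 2 of Mir216b and 7 of Mir217, were in Bone marrow 14, at 2.38 CPM, while the other 11 libraries of bone marrow had none. Muscle had 13 counts, 11 of them Mir217, lung 11, testis 7, heart and kidney 6 each, and liver 2, both Mir216a in Liver 10. Which of 2 libraries per animal the testis columns hold could not be settled from their names.

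Beside the cluster, the 9 other miRNAs of the pancreas list were all called higher in pancreas than in the mean of the other 10 tissues, against 11.3% of all genes tested. They were listed as pancreas miRNAs, so their direction is not independent evidence. Mir375, which regulates insulin secretion, differed by 10.77 ± 0.39 on the log2 scale, Mir148a by 4.06 ± 0.27 and Mir802, also a miRNA of liver, by 9.97 ± 0.43 (edgeR adjusted p = 5.93e-54, 1.88e-28 and 1.62e-45). Mir148a did not exceed each other tissue singly, with liver nearest at 0.28 (edgeR adjusted p = 1). Mir375 was called in that comparison at 2.67 (edgeR adjusted p = 3.98e-04). The smallest log2 difference of Mir216a and Mir217 to any tissue was thus 6.33 and 6.37 where that of Mir375 was 2.67. Mir219a-1 came close to the members, called at 5.44 (edgeR adjusted p = 7.98e-10). Mir184, Mir34a, Mir7-1 and Mir7-2 were called at 4.07, 3.02, 2.13 and 2.10, and Mir7b and Mir802 were not called.

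The genes whose levels followed the cluster most closely were ranked by Pearson's r of log2(CPM + 1) with the cluster sum. Over 134 libraries these were Mir6969 (r = 0.93), Mir7b (0.81), Mir219a-1 (0.79), Mir184 (0.78) and Mir7076 (0.76). Mir6969 stood at 85.9 ± 53.0 CPM in pancreas and 1.55 ± 2.73 in intestine, and was at 0 in every brain library. Mir7b stood at 1287 ± 1105 in pancreas, with brain next at 249 ± 236. Over the means of the 11 tissues the closest were 4 transfer RNA genes that the table names by number only, with r from 0.95 to 0.98 and pancreas means of 13.8 CPM or less with SDs above the mean, and Mir6969 again (0.95). Libraries share depth and composition within a tissue, so these correlations are descriptions.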

How the data were processed

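The authors deposited raw counts per small RNA gene, 1 column per library and not normalised. Tissue lay in RNAlater, TruSeq small RNA adapters were ligated to the isolated RNA, and reads came from a NextSeq instrument, per the labels' protocols. Reads were placed on mm10 (GRCm38) and counted, with STAR 2.5.1 and featureCounts named, per the submitters' processing notes. How strand and reads that match several genes were handled is not given in the sources used here. Columns exist for 134 libraries, 131 matched to a sample by name and 3 to testis only, and 5 of the 139 listed samples were not analysed here. Replicate numbers are animals, so 1 animal gave libraries of several tissues, and p-values over libraries treat them as separate. The members, the lists and the comparisons were chosen with earlier results of these data known.

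CPM was computed from the library total. The edgeR 4.0.16 quasi-likelihood test (R 4.3.3, limma 3.58.1) was run on the counts of all 134 libraries, with tissue and pool as terms. A minimum count of 10 (filterByExpr by tissue) left 1268 genes, all 3 members among them, which passed through the tissues where they are high. TMM factors ran from 0.1985 to 5.884, and the procedure was tested on simulated data. Single values were compared by exact permutation, or with 100000 resamples, in scipy 1.17.1, and exact intervals cover counting error alone, since PCR copies are not independent molecules. A share needed 20 counts. Alternatives were DESeq2 1.42.0 as test and as scaling, library totals, no filter, no pool term, the animal as a block, leaving out libraries, other pseudocounts and other count minimums. Named genes are the members, Mir216c, the marker lists and the 5 genes closest to the cluster over libraries and over tissue means. Mir7-1 and Mir7-2 are the table's names of the Mir7a copies.

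The animal block rests on the series' 14 individuals. Deviations of pancreas and intestine libraries of the same animal from their tissue means correlated by -0.47 to 0.39 over 10 animals (median -0.17).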

Additional observations from a re-analysis of the deposited data

How the results depend on the processing

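Of 833 values under alternatives over 32 results, 808 kept the direction and the side of the threshold; the cause of the other changes was not tested. All those of Mir216a and Mir217 between pancreas and the other tissues kept both. Mir216b did not. For pancreas against each other tissue it passed with the DESeq2 Wald test (6.28), library totals (5.46), no pool term (5.75), animals 1 to 10 alone (6.22) and the animal block (7.45). Leaving out 1 library gave 3.10 to 5.48 there, and it passed without Bone marrow 14 or Intestine 1. Against intestine leaving out 1 library gave 3.10 to 5.48 too. Without libraries under 100000 counts no pancreas library of pool N541 is left and Mir216b had 13.59 against the mean of the other tissues and 6.49 against intestine, both with adjusted p of 1. The animal block changed no other call. With pool N541 alone, where intestine holds 1 cluster count, intestine against the 9 tissues gave -2.05 for Mir216a, a reversal, and 2.48 for Mir217, and Mir216b could not be fitted.

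The Mir216b share of pancreas against brain was 7.19 points at a minimum of 50 counts, and the Mir216a share of intestine against brain 20.5 points at a minimum of 5. At 5 counts, which adds Pancreas 11, the animal sets differed by 11.9 points in the Mir216a share and 12.7 in the Mir216b share, both past the threshold. The log2 difference of Mir216b between the animal sets ran from 3.49 to 7.38 when 1 library of animals 11 to 14 was left out. Without Pancreas 11 the relations of Mir216b weakened, to r = 0.61 with Mir216a, 0.30 with Mir217 and 0.54 with Mir375. None of these r passed the threshold any longer (permutation adjusted p = 0.0689, 0.390 and 0.1245). Depth limits pancreas most: Pancreas 11, 12 and 13 held 10255, 66250 and 13795 counts, and 3 counts are 292.5 CPM in the first.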

Other observations

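The other marker lists, some of which were set beside the cluster above, were also summed in each library of pancreas, intestine and brain. The pan-epithelial miRNAs Mir200a, Mir200b, Mir200c, Mir141 and Mir429 summed to a median of 32117 CPM over pancreas libraries (6083 to 88091), 12734 over intestine (740.7 to 47985) and 1730 over brain (6.38 to 22255). The smooth muscle miRNAs Mir143 and Mir145a had medians of 20804, 76248 and 15942 CPM, and the pancreas range of 3749 to 210824 narrowed to 3749 to 31187 without Pancreas 11. The lymphoid miRNAs Mir150 and Mir142 had medians of 226 CPM in pancreas, 1742 in intestine and 724 in brain, and the erythroid Mir451a and Mir144 929, 375 and 1096. Mir122, the hepatocyte miRNA, had medians of 5.01, 0.379 and 2.78 CPM. The islet miRNAs Mir375, Mir7-1, Mir7-2, Mir7b and Mir184 summed to 1950 CPM in Pancreas 11 and to 20873 to 117868 in the other 11 pancreas libraries.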
